A study of Mus musculus with 8 samples.

Results

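Transcript levels of 9 genes of the TGF-beta and BMP pathways were followed across sorted lung epithelial cells of the mouse: the ligands Tgfb1, Tgfb2, Tgfb3 and Bmp4, the receptors Tgfbr1, Tgfbr2 and Bmpr1a, the inhibitor Smad7 and the target Id1. They were chosen by name as ligands, receptors, an inhibitor and a target of these pathways, and all 9 were found among the 24306 genes on the arrays. Each was read from the spot with the highest mean signal over the 8 arrays.

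Alveolar type 2 cells (AT2s) are the surfactant-making stem cells of the air sacs. IAAPs, or injury-activated alveolar progenitors, are sorted from the same lineage-labeled epithelium by their dimmer tdTomato signal, so that AT2s are Tom-high and IAAPs Tom-low. All mice carried the tamoxifen-inducible Cre of the Sftpc locus (SftpCreERT2/+), which acts in cells that express surfactant protein C, and 2 tdTomato reporter alleles (Tomatoflox/flox). Control mice (C-) had wild-type Fgfr2b and experimental mice (E-) were Fgfr2bflox/flox, so that tamoxifen can delete this FGF receptor isoform in Sftpc-expressing cells. The label E- gives the genotype of the mouse and not a loss of the receptor in each sorted cell, and E-IAAPs in particular are not to be read as receptor-deleted cells. Mice of both sexes, 9 to 12 weeks old, drank water with 1 mg/ml tamoxifen, and lungs were taken after 4, 7 or 14 days. The C-AT2 and C-IAAP arrays are of day 7, and the E-AT2 and E-IAAP arrays are of days 4, 7 and 14, with 1 array of each. No group had 2 arrays of the same day, and how many mice stood behind an array is not given in the sources used here. The p-values for E-IAAPs against E-AT2s therefore measure how the gap between them varied across days. Those of the other fits measure the spread of a population across days. Day, mouse and array are mixed in both, and the spread between mice of the same day is not measured.

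TGF-beta ligands are secreted in a latent form and, once released, bring together the type II receptor Tgfbr2 and the type I receptor Tgfbr1, which phosphorylates Smad2 and Smad3. BMP ligands such as Bmp4 signal through type I receptors such as Bmpr1a to Smad1 and Smad5, and Id1 is a classical gene switched on by that branch. Smad7 is itself induced by the pathway and blocks the type I receptors, which makes it a negative feedback regulator. In the alveolus, BMP signaling is known to hold AT2s back from dividing and TGF-beta signaling takes part in their flattening into type 1 cells.

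The C-IAAP array stood apart, and every comparison with it rests on that 1 array. A background level was set on each array from 1379 sensory receptor genes, which lung epithelium is not expected to use. For C-IAAPs it was 8.66 (log2 signal), against 6.45 to 7.28 for the other 7 arrays, so that 26.7% of genes exceeded it there and 40.8% to 46.6% elsewhere. Epcam, the epithelial surface protein used for sorting, was at 8.72 in C-IAAPs and at 10.88 to 11.38 elsewhere. The other epithelial markers did not all follow it. Of 8 such markers with Epcam among them, 6 lay above background in C-IAAPs and 7 on each other array. Compared with C-AT2s, 3 of the 8 had higher values in C-IAAPs, with a median difference of -0.11. On each array, of AT2s and IAAPs alike, 10 of 10 AT2 markers lay above background, which does not separate the populations. Sftpc, at 15.79 to 16.00, was at the highest values the arrays give. Fgfr2 was at 12.45 in C-AT2s and 11.68 to 12.10 in E-AT2s, and at 11.72 in C-IAAPs and 10.87 to 11.83 in E-IAAPs. Whether its spot lies in the deleted exon is not given in the sources used here, so these values do not check the deletion.

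Leukocyte and macrophage transcripts also moved with the populations. Compared with E-AT2s, all 15 measured alveolar macrophage markers were higher in E-IAAPs. Of these 13 passed the test over all genes, where 1.31% of all genes did. Their summed signal (log2) was 12.05 to 12.90 on the 4 AT2 arrays, 15.37 in C-IAAPs and 16.33 to 16.65 in E-IAAPs. Of 12 general leukocyte markers 10 passed, with summed signals of 13.43 to 14.22, 15.16 and 15.45 to 15.63 in the same order. Compared with C-IAAPs, 14 of the 15 macrophage markers had higher values in E-IAAPs (median difference 2.2). Among the 12 leukocyte markers it was 7 (median difference 0.17). Ptprc, the gene of the leukocyte protein CD45, ran from 7.67 to 8.41 in AT2s and from 12.38 to 12.93 in IAAPs. Of 12 endothelial markers 11 had higher values in E-IAAPs than E-AT2s (median difference 0.69) and 0 passed, with 0 to 3 above background on an array and Pecam1 below it on all. Of 12 fibroblast and smooth muscle markers 6 had higher values (median difference -0.05) and 0 passed, with 2 to 3 above background on an array, among them Acta2 at 12.31 to 13.28, and Col1a1 below it on all. In sorted pools of cells, a higher share of one cell type and more RNA per cell cannot be told apart. Airway markers were also higher in E-IAAPs, 8 of 8 with a median difference of 1.54 from E-AT2s, of which 0 passed.

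**Figure D1:**
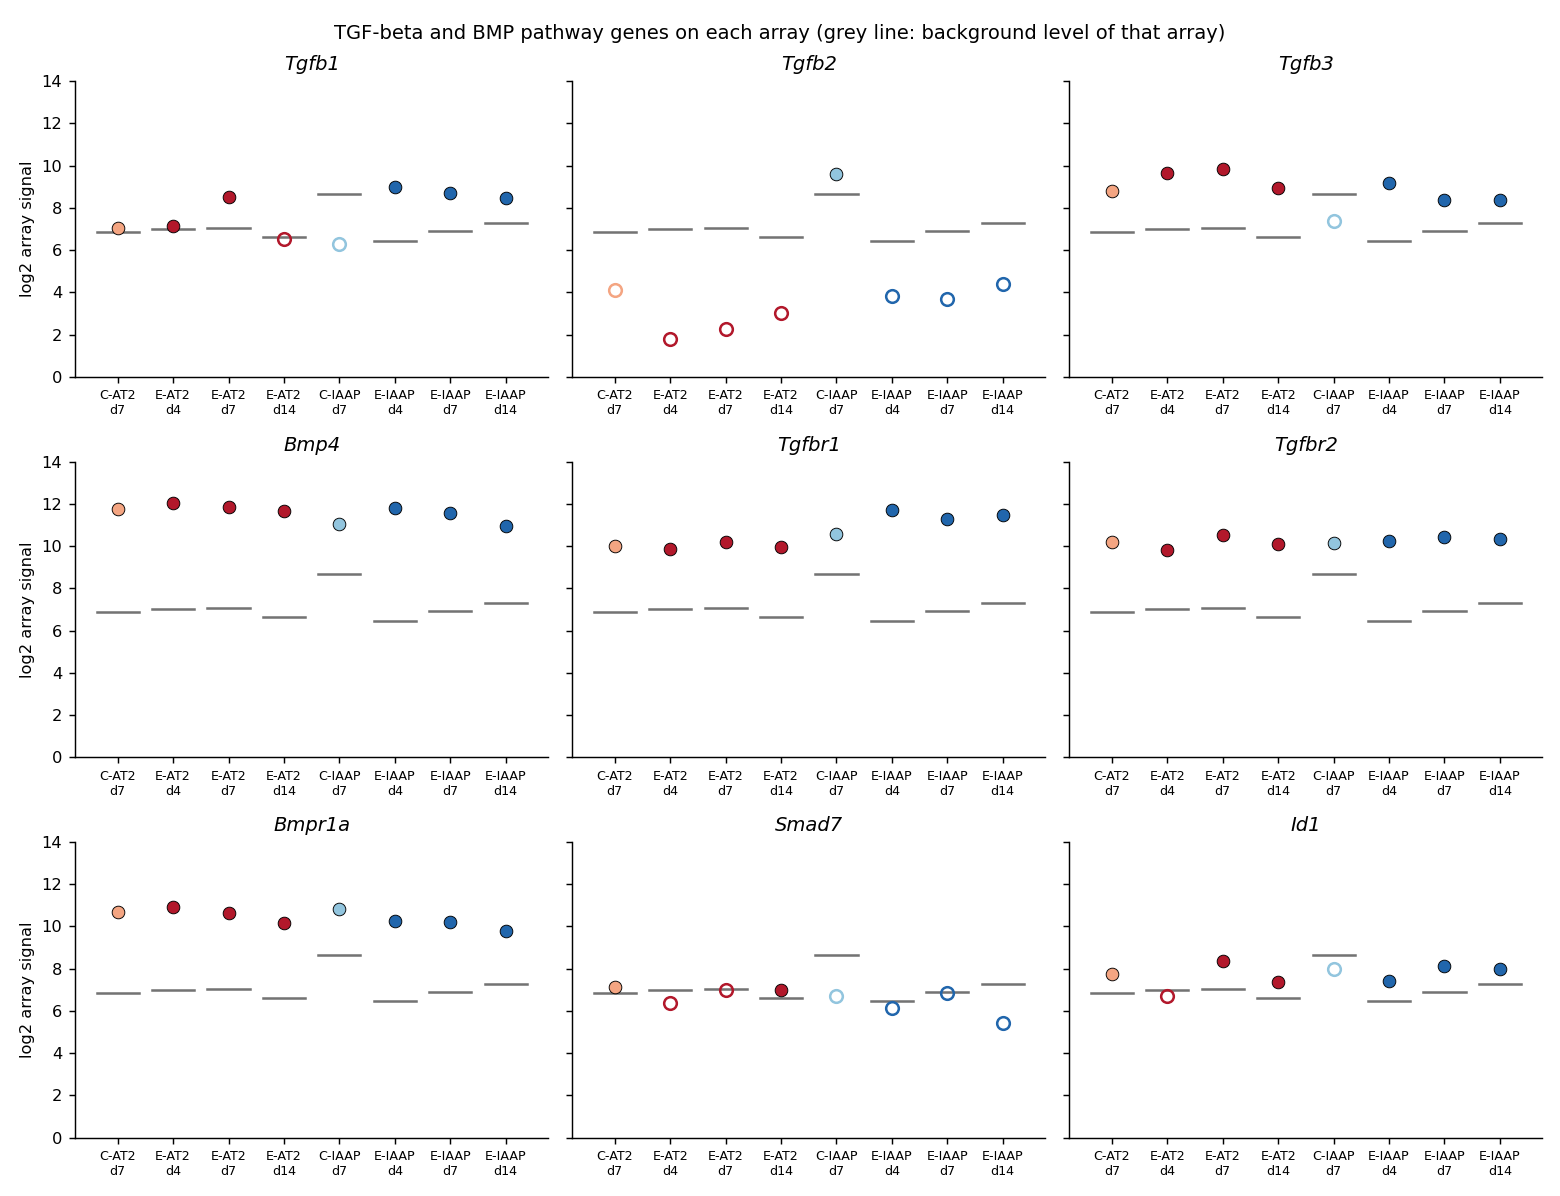
Log2 array signal (vertical axis) of the 9 genes on each of the 8 arrays (horizontal axis), 1 panel a gene; the grey line is the background level of each array. Bmp4 and the 3 receptors lay above background on all 8 arrays, Tgfbr1 was highest on the 3 E-IAAP arrays, and Tgfb2 rose above background on the C-IAAP array alone.

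Bmp4 and the 3 receptors were the genes whose signal could be followed everywhere, since each lay above background on all 8 arrays. Tgfb3 did so on 7 arrays, Tgfb1 and Id1 on 6, Smad7 on 2 and Tgfb2 on 1. A signal below background has no reliable order, so the differences of Smad7 and Tgfb2 are those of values near the floor. Levels of different genes were not set against each other, because spots differ in how well they bind.

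Between E-IAAPs and E-AT2s, 0 of the 9 genes passed the test over all genes, against 1.31% of all genes (1.3% higher, 0.00411% lower). The test was limma with the day as a block and an adjusted p under 0.05. At an unadjusted p under 0.05, 4 of the 9 were counted (Tgfb1, Tgfb2, Tgfb3 and Tgfbr1), against 11.7% of all genes. The median difference of the 9 genes was 0.20, against -0.05 for all genes. The signals of the E-IAAP and E-AT2 arrays did not overlap for 2 of the 9 genes, Tgfbr1 and Tgfb2, both higher in E-IAAPs, against 19.2% of all genes (8.46% higher, 10.7% lower).

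Tgfb1, the main TGF-beta ligand of immune and epithelial cells, read 8.99, 8.72 and 8.48 in E-IAAPs on days 4, 7 and 14. In E-AT2s it read 7.12, 8.51 and 6.53 on the same days, the last of these below background. The C-AT2 array was at 7.06 and the C-IAAP array at 6.30, below its background. The E-IAAP arrays of days 4 and 7 lay above every E-AT2 array, and that of day 14 lay just under the E-AT2 array of day 7. Over 3 days the mean was 8.73 ± 0.26 (SD) for E-IAAPs and 7.39 ± 1.02 (SD) for E-AT2s. In limma the gap was 1.34 on the log2 scale (standard error 0.44, adjusted p = 0.376), and it ran from 0.21 on day 7 to 1.95 on day 14. A second spot of Tgfb1 lay above background only on 2 arrays, those of E-IAAPs on days 4 and 7.

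On that second spot Tgfb1 read 7.99, 8.19 and 7.15 in E-IAAPs, 6.01, 5.45 and 6.15 in E-AT2s, 6.54 in C-AT2s and 3.66 in C-IAAPs. The E-IAAP and E-AT2 arrays did not overlap there. The difference of 1.90 (standard error 0.41) did not pass in limma over all 43941 named spots either (adjusted p = 0.219). Against C-IAAPs the first spot gave 2.43 (standard error 0.72, adjusted p = 0.0614), and the bound set by the C-IAAP background is at least 1.05-fold. The call turned with the fit: the adjusted p was 0.00626 with all probes averaged, 0.0362 among brighter genes, 0.0295 with a mean-variance trend, 0.0333 from the 2 groups alone and 0.0482 without day 7, but 0.904 with low values raised to background, where the difference was 0.07. That last setting brought the difference from E-AT2s, 1.32, past the threshold (adjusted p = 0.01). On the second spot the C-IAAP value and the E-IAAP mean both lay under the C-IAAP background, so no size is given for it.

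Tgfb2, a ligand best known from development, was listed far above its other values on the C-IAAP array. Its signal there was 9.59. It was 4.09 in C-AT2s, 1.81, 2.28 and 3.01 in E-AT2s on days 4, 7 and 14, and 3.82, 3.68 and 4.41 in E-IAAPs, all below background. The 7 low arrays and the high one did not come near each other, but the high value stayed under the 99 percentile of the sensory receptor genes on its array, 11.01. It lay 0.92 above the background of its array, 8.66, which was the highest background of the 8. The folds written below as "at least" use the lower background of the other arrays. On the log2 scale most of each fold is the gap between these backgrounds. They are therefore no measure of the size of a Tgfb2 rise.

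By limma on all 8 arrays, Tgfb2 was higher in C-IAAPs than in C-AT2s, by 5.49 (standard error 0.67, adjusted p = 0.00707), or at least 6.61-fold against the background level. It was lower in E-IAAPs than in C-IAAPs, with a fitted difference of -5.62 (standard error 0.54, adjusted p = 0.00252), or at least 6.53-fold lower. These were the calls among the 9 genes in those comparisons, 1 of 9 in each, where 13.9% of all genes passed between C-IAAPs and C-AT2s (6.11% higher, 7.77% lower) and 17.1% between E-IAAPs and C-IAAPs (9.35% higher, 7.75% lower). The difference between populations also differed between genotypes for Tgfb2, with an interaction of -3.89 (standard error 0.77, adjusted p = 0.0429), 1 of 9 genes against 4.37% of all genes (2.83% above 0, 1.54% below). Without any 1 of the days, the adjusted p of this interaction lay between 0.0873 and 0.136.

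The second spot of Tgfb2 did not carry the rise. It read 3.84 on the C-IAAP array, 2.93 in C-AT2s, 2.52 to 3.46 in E-AT2s and 3.01 to 4.79 in E-IAAPs, below background everywhere, and its highest value was in E-IAAPs on day 7. In limma over all named spots its difference between C-IAAPs and C-AT2s was 0.90 (adjusted p = 0.559), that between E-IAAPs and C-IAAPs was -0.18 (adjusted p = 0.892), and the interaction was -0.31 (adjusted p = 0.895). Over all genes, 132 had their brightest spot above background on the C-IAAP array alone, and in 0 of the 58 of these with a second spot did that spot lie above background there. For the other 7 arrays the same share ran from 0% to 22.2%. The E-IAAP and E-AT2 arrays did not overlap on the brightest Tgfb2 spot (difference 1.60, adjusted p = 0.124), but every one of those 6 signals was below background. Markers of T, B and NK cells had their highest summed signal (log2) on the C-IAAP array, 12.68 against 10.27 to 11.98 elsewhere. Of 11 measured, 4 lay above background there and 3 to 5 on the others. Cd3e was at 10.33 there and 5.04 to 7.48 on the others. The endothelial gene Cdh5 was at 10.56 there and 4.78 to 7.29 on the others. It was the 1 of 12 endothelial markers above background on the C-IAAP array. The part of these cell types in the Tgfb2 signal was not tested.

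**Figure D2:**
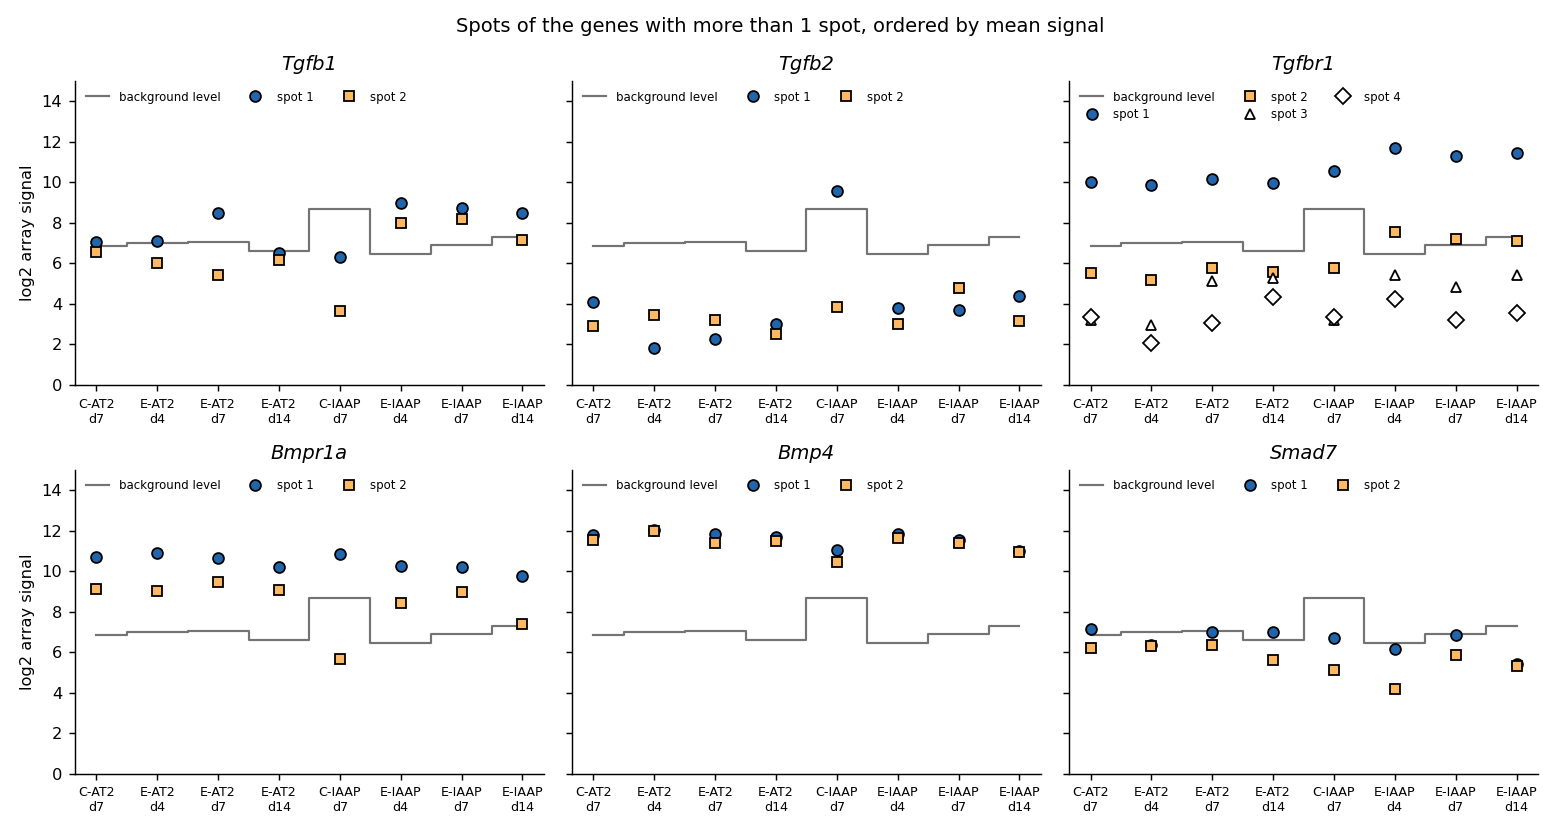
Log2 array signal (vertical axis) of each spot of the 6 genes with more than 1 spot, on the 8 arrays (horizontal axis), with the background level as a grey line. Both spots of Bmp4 lay above background on all 8 arrays and the 2 brightest of Tgfbr1 were highest in E-IAAPs, while the Tgfb2 value of 9.59 in C-IAAPs was on 1 spot and its second spot stayed at 3.84, and the second spot of Bmpr1a fell to 5.65 there.

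Tgfb3, the remaining TGF-beta isoform, had its highest signals in E-AT2s. It read 9.65, 9.82 and 8.96 in E-AT2s on days 4, 7 and 14 and 9.17, 8.35 and 8.39 in E-IAAPs, with 8.79 in C-AT2s. The C-IAAP signal, 7.37, was below background. E-IAAPs were lower on each of the 3 days, by 0.48 to 1.47, yet the highest E-IAAP array lay above the lowest E-AT2 array. The limma difference was -0.84 (standard error 0.32, adjusted p = 0.427), from means of 8.64 ± 0.46 and 9.48 ± 0.45 (SD, n = 3 days).

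Bmp4, the BMP ligand of the set, varied little. It read 11.77 in C-AT2s, 12.05, 11.85 and 11.67 in E-AT2s, 11.04 in C-IAAPs and 11.82, 11.55 and 10.97 in E-IAAPs. On each day the E-IAAP array was the lower one, by 0.23, 0.30 and 0.70 on days 4, 7 and 14, and the groups overlapped. Limma gave -0.41 (standard error 0.27, adjusted p = 0.592). Its second spot lay above background on all 8 arrays as well and gave -0.29, and both spots were lower in C-IAAPs than in C-AT2s, by 0.73 and 1.11, without passing (adjusted p = 0.386 and 0.208).

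Tgfbr1, the type I receptor kinase of TGF-beta, had its 3 highest signals on the 3 E-IAAP arrays. They were 11.72, 11.28 and 11.47 in E-IAAPs on days 4, 7 and 14. In E-AT2s it was 9.86, 10.17 and 9.97, in C-AT2s 10.01 and in C-IAAPs 10.55. All 3 E-IAAP arrays lay above the other 5, the C-IAAP array came next, and the 4 AT2 arrays lay closely together. The means were 11.49 ± 0.22 and 10.00 ± 0.16 (SD, n = 3 days), a 2.81-fold difference.

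Limma gave Tgfbr1 a log2 difference of 1.49 between E-IAAPs and E-AT2s (standard error 0.28, unadjusted p = 0.00388), which ranked 614 of all genes and did not pass after adjustment (adjusted p = 0.153). The difference was 1.86, 1.11 and 1.50 on days 4, 7 and 14. The call turned with the fit: the adjusted p was 0.00665 with a mean-variance trend, 0.0331 without the day block and 0.0015 with low values raised to background, and 0.329 to 0.481 without any 1 of the days. Against C-IAAPs the difference was 0.94 (standard error 0.35, adjusted p = 0.112), and it passed among brighter genes (adjusted p = 0.045), with low values raised (0.0344) and with the trend (0.0345). A second spot read 7.57, 7.22 and 7.09 in E-IAAPs, 5.19 to 5.76 in E-AT2s, 5.51 in C-AT2s and 5.75 in C-IAAPs, and gave 1.78 against E-AT2s (adjusted p = 0.153). That second spot was above background in E-IAAPs on days 4 and 7 alone, and the remaining 2 spots of the gene never were. The macrophage and leukocyte markers were high on the same 3 arrays, but also on the C-IAAP array. Their summed signals (log2) were 15.37 and 15.16 in C-IAAPs, against 16.33 to 16.65 and 15.45 to 15.63 in E-IAAPs. The part of these cells in the differences of Tgfbr1 and Tgfb1 was not tested.

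The promoters of Tgfb2 and Tgfbr1, on which the results above turn, are shown as the 250 bases before the first listed start, 5′ to 3′, from RefSeq (GRCm38.p6). Capitals mark CAGAC, the core bound by Smad3 and Smad4, and GGCGCC, a motif bound by BMP Smads, each searched on both strands. Tgfb2 lies on the minus strand at chr1:186705990-186706239 and Tgfbr1 on the plus strand at chr4:47352972-47353221.
Tgfb2: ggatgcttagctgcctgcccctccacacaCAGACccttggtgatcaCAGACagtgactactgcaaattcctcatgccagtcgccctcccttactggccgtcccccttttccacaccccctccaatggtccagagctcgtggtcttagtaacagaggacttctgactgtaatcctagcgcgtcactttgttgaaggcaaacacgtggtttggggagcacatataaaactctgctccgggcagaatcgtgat
Tgfbr1: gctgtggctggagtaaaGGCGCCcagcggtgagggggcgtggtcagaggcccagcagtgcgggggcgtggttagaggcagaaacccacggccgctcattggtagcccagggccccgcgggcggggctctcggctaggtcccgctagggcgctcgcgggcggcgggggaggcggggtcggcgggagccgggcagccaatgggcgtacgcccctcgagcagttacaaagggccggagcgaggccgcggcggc
The Tgfb2 window holds CAGAC 2 times and that of Tgfbr1 holds GGCGCC 1 time. Over 32851 promoters of this length, 42.2% hold CAGAC and 9.59% hold GGCGCC. Of the 6 genes with an entry (Tgfb1, Tgfb2, Bmp4, Tgfbr1, Tgfbr2 and Bmpr1a), the windows of Tgfb1 and Bmp4 hold neither, Bmpr1a holds 1 GGCGCC, and Tgfbr2 and a second start of Tgfbr1 hold 1 CAGAC each. A match is a description of these letters and no evidence of binding.

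Tgfbr2, the type II receptor that loads Tgfbr1, was nearly flat. It read 10.20 in C-AT2s, 9.81, 10.50 and 10.09 in E-AT2s, 10.13 in C-IAAPs and 10.22, 10.44 and 10.35 in E-IAAPs, a range of 0.69 over the 8 arrays. The difference between E-IAAPs and E-AT2s was 0.20 (standard error 0.26, adjusted p = 0.791 in limma), and it was -0.06 on day 7. Tgfbr2 passed in no comparison.

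Bmpr1a, a type I receptor for BMP4, read 10.26, 10.22 and 9.78 in E-IAAPs and 10.90, 10.66 and 10.18 in E-AT2s on days 4, 7 and 14, with 10.69 in C-AT2s and 10.85 in C-IAAPs. In both experimental populations the day 14 array was the lowest, 0.48 below day 4 in E-IAAPs and 0.72 below it in E-AT2s. E-IAAPs were lower on each day, by 0.40 to 0.64, with overlapping groups (limma difference -0.49, standard error 0.25, adjusted p = 0.512). The 2 spots of Bmpr1a gave opposite answers about C-IAAPs. The second read 5.65 there, below background, against 9.13 in C-AT2s, a fitted difference of -3.48 (adjusted p = 0.0292 over all spots) that is no exact size, while the first gave 0.15 (adjusted p = 0.874).

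Smad7, the inhibitor induced by the pathway, was near the floor. Its signal was 7.15 in C-AT2s and 6.97 in E-AT2s on day 14, both above background, and 6.36 and 7.01 in E-AT2s on days 4 and 7, 6.70 in C-IAAPs and 6.15, 6.85 and 5.43 in E-IAAPs, all below it. The lowest array was that of E-IAAPs on day 14. No difference between groups was detectable (E-IAAPs against E-AT2s -0.63, standard error 0.38, adjusted p = 0.571 in limma), and its second spot was above background on 0 arrays.

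Id1, a direct BMP target that restrains differentiation, overlapped widely between the populations. It read 6.72, 8.37 and 7.37 in E-AT2s and 7.40, 8.11 and 8.01 in E-IAAPs on days 4, 7 and 14, 7.75 in C-AT2s and 8.00 in C-IAAPs. The lowest array of each experimental population was day 4 and the highest day 7, and the values of E-AT2s on day 4 and of C-IAAPs were below background. E-IAAPs were higher on days 4 and 14, by 0.69 and 0.64, and lower on day 7, by 0.26. The limma difference of 0.36 (standard error 0.32, adjusted p = 0.691) was smaller than the spread of E-AT2s across days, 0.83.

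**Figure D3:**
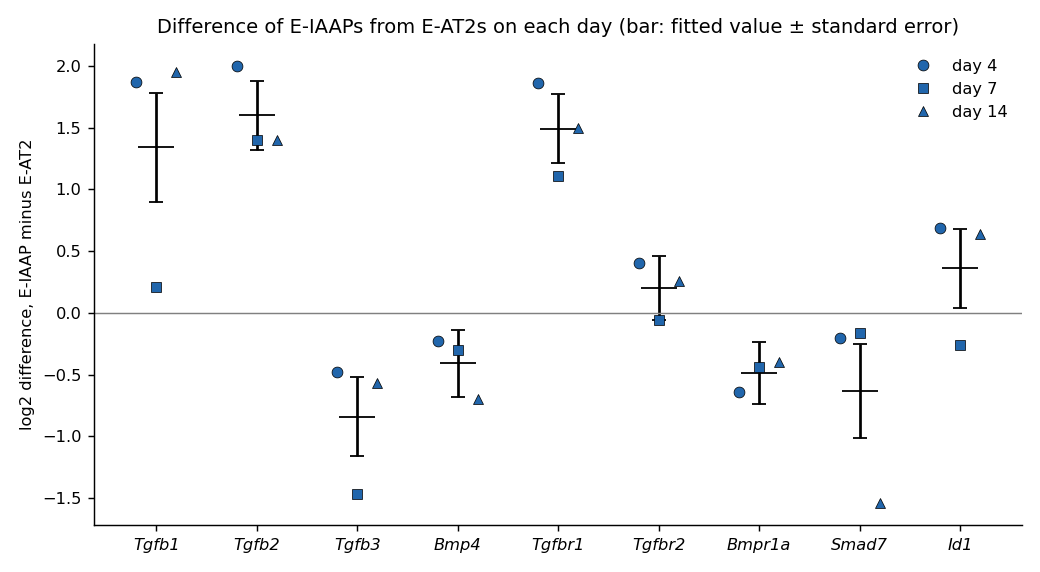
Log2 difference of E-IAAPs from E-AT2s (vertical axis) for each of the 9 genes (horizontal axis), with 1 symbol a day and a bar for the fitted value ± standard error. Tgfbr1 lay between 1.11 and 1.86 on the 3 days, whereas Id1 and Tgfbr2 crossed 0.

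Between the AT2s of experimental and control mice no gene of the pathways was called. Between E-AT2s and C-AT2s 0 of the 9 genes passed, and 0% of all genes did in limma, while 6.62% of all genes, and Tgfb2 of the 9, had an unadjusted p under 0.05. Tgfbr1, Tgfbr2, Bmpr1a and Bmp4 differed by -0.01, -0.06, -0.11 and 0.09, with standard errors of 0.35 to 0.43. Tgfb3 was higher on each E-AT2 array than in C-AT2s (difference 0.68, standard error 0.51, adjusted p = 0.964). With 1 C-AT2 array, a difference of this size could not be told from the spread across days.

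On day 7, the 1 day on which all 4 populations were measured, the values are differences of 2 arrays and carry no test. E-IAAPs differed from C-IAAPs by 2.42 for Tgfb1, 0.99 for Tgfb3, 0.73 for Tgfbr1, 0.51 for Bmp4 and -0.63 for Bmpr1a. Tgfb1 and Tgfb3 were below background in C-IAAPs. Within AT2s, the brightest spot of Tgfb1 was 1.45 and Tgfb3 1.03 higher in the experimental array. On the brightest Tgfb1 spot the gap between E-IAAPs and E-AT2s was smallest on this day, 0.21. The second spot went the other way on both counts: its E-AT2 value of day 7, 5.45, was the lowest of the 3 days and lay under the 6.54 of C-AT2s, all of them below background.

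The 4 ligands did not share a pattern across the arrays. Over the 8 arrays, which share the normalization and 4 groups of cells, Bmp4 and Tgfb3 ran together (Pearson's r 0.85, and 0.77 over the 7 arrays without C-IAAPs), Tgfbr1 and Tgfb1 likewise (0.73 and 0.83), and Tgfbr2 and Id1 most closely (0.91 and 0.97). Bmpr1a ran with Bmp4 without C-IAAPs (0.88) and less so with them (0.42). Among 10561 genes above background on at least 4 arrays, the gene most like Tgfbr1 was Rel, an NF-kappa-B subunit (r 0.998 over 8 arrays), followed by Ppt1, a lysosomal enzyme (0.986). Rel read 11.09 to 11.48 in E-IAAPs, 10.54 in C-IAAPs and 9.95 to 10.13 in AT2s. The genes most like the others were Mafg and Tnfaip3 for Tgfb1 (0.958 and 0.921), Sptbn1 and Arsa for Tgfb3 (0.978 and 0.970), Camsap3 and Phf2 for Bmp4 (0.984 and 0.983), Sf3b3 and Ehd1 for Tgfbr2 (0.984 and 0.965), Iqce and Rabgef1 for Bmpr1a (0.973 and 0.959), and Ogfrl1 and Pa2g4 for Id1 (0.967 and 0.953). With 8 arrays and this many genes, high values of r arise readily, and they are given as descriptions.

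A further 101 genes of the pathways were listed by role, of which 99 were measured, 50 lay above background on at least 4 arrays and 39 on none. Between E-IAAPs and E-AT2s 1 of the 99 was higher and 0 lower, or 1.01% of the list against 1.31% of all genes, with a median difference of -0.03 against -0.05 for all genes. Between E-IAAPs and C-IAAPs 6 were higher and 5 lower, and between C-IAAPs and C-AT2s 6 were higher and 4 lower. Within AT2s 0 passed, and 8 of the 99 had an unadjusted p under 0.05, where 6.62% of all genes did. The calls against C-IAAPs are 11.1% of the 99 genes and those between C-IAAPs and C-AT2s 10.1%, both below the shares of all genes given above. These genes were read from their brightest spot alone.

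The call between the experimental populations was Fn1, the matrix protein fibronectin and a target of TGF-beta. It read 11.25, 11.47 and 12.30 in E-IAAPs and 4.94, 6.18 and 6.85 in E-AT2s on days 4, 7 and 14, 5.71 in C-AT2s and 9.67 in C-IAAPs. The IAAP arrays were all higher than the AT2 arrays, of which only that of E-AT2s on day 14 was above background (limma difference 5.68, standard error 0.32, adjusted p = 0.0175). C-IAAPs were higher than C-AT2s by a fitted 3.95, or at least 6.99-fold against the C-AT2 background. That background was 6.86 and the one of C-IAAPs 8.66, so on the log2 scale most of this fold is the gap between them. Tgfbi, another target, named for its induction by TGF-beta, read 12.29, 12.52 and 12.58 in E-IAAPs, 10.28, 11.10 and 10.37 in E-AT2s, 10.17 in C-AT2s and 10.72 in C-IAAPs. It was higher in E-IAAPs than in C-IAAPs (1.75, adjusted p = 0.0357) and did not pass against E-AT2s (1.88, adjusted p = 0.0909). Fn1 and Tgfbi are also made by macrophages, whose markers rose on the same arrays, and the part of these cells in either difference was not tested. Of the other measured targets, Acta2 and Id2 were above background on all arrays and passed in no comparison, with Id2 at 11.96 to 12.65 in E-IAAPs and 11.66 to 11.98 in E-AT2s.

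Ligands, activators, antagonists and receptors beyond the 9 genes gave no call between E-IAAPs and E-AT2s. Of 21 other genes listed as ligands 15 were never above background. Bmp5 (11.03 to 11.69 in E-IAAPs, 11.63 to 11.86 in E-AT2s), Lefty2, Bmp3 and Inhbb were above it on all 8 arrays. This list does not separate activating from blocking members. Of 11 genes of latency and activation, Furin, a protease that cuts TGF-beta precursors, ran from 13.49 to 14.35 over the arrays and Ltbp1, which tethers latent TGF-beta, from 11.18 to 13.05 with the C-IAAP array highest. Of 12 measured secreted antagonists, Fstl1 read 13.53 to 14.84 and the BMP antagonists Nog and Chrd were above background on 2 arrays each. Of 12 other receptors, Acvr1b, Bmpr2, Acvr2a and Bambi, a decoy receptor, were above it on all arrays.

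Of 12 Smads and partners 1 passed in each comparison with the C-IAAP array, and of 10 inhibitors 2 passed against E-IAAPs and 1 against C-AT2s, where 17.1% and 13.9% of all genes did. Smad5, which carries BMP signals, read 8.59 in C-IAAPs, just below background, and 9.79 to 10.26 on the other 7 arrays (E-IAAPs against C-IAAPs 1.24, adjusted p = 0.0461; C-IAAPs against C-AT2s -1.65, adjusted p = 0.0420). Smurf2, a ubiquitin ligase that marks Smads and receptors for removal, read 8.96 in C-IAAPs and 10.66 to 11.21 on the others (1.93, adjusted p = 0.0153; -2.24, adjusted p = 0.0221). The receptors Acvr2b and Amhr2 and the inhibitor Pmepa1 also passed against C-IAAPs, and Amhr2 between C-IAAPs and C-AT2s, but the signals of the groups compared all lay under the C-IAAP background of 8.66 on average, so no size or direction is given. Smad2 (10.37 in C-IAAPs, 11.24 to 12.14 on the others) and Smad4 (10.17 to 11.00) were above background on all arrays and did not pass.

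In the other direction, Id3, a BMP target related to Id1, read 8.75 in C-IAAPs and 5.56 to 6.92 on the other arrays. It was above background there and on 1 E-IAAP array, so that the others were at the floor. It passed in both comparisons with that array (adjusted p = 0.0219 for E-IAAPs and 0.0192 for C-AT2s), at least 3.71-fold higher than in C-AT2s. The fold is set against the C-AT2 background of 6.86. On the C-IAAP array the Id3 signal of 8.75 lay just above a background of 8.66. Most of the fold is therefore the gap between these backgrounds, and it is no measure of the size of an Id3 rise. Tagln, a contractile target of TGF-beta, read 10.56 in C-IAAPs and 8.78 to 9.53 on the others (E-IAAPs against C-IAAPs -1.30, adjusted p = 0.0451). Every signal was below background for Nodal, Cdkn2b and Msx2, which passed as lower in E-IAAPs, and for Bmp6, Cdkn2b and Msx2, which passed as higher in C-IAAPs compared with C-AT2s. Dlx5, lower in C-IAAPs than in C-AT2s, was likewise below background on all 8 arrays.

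**Figure D4:**
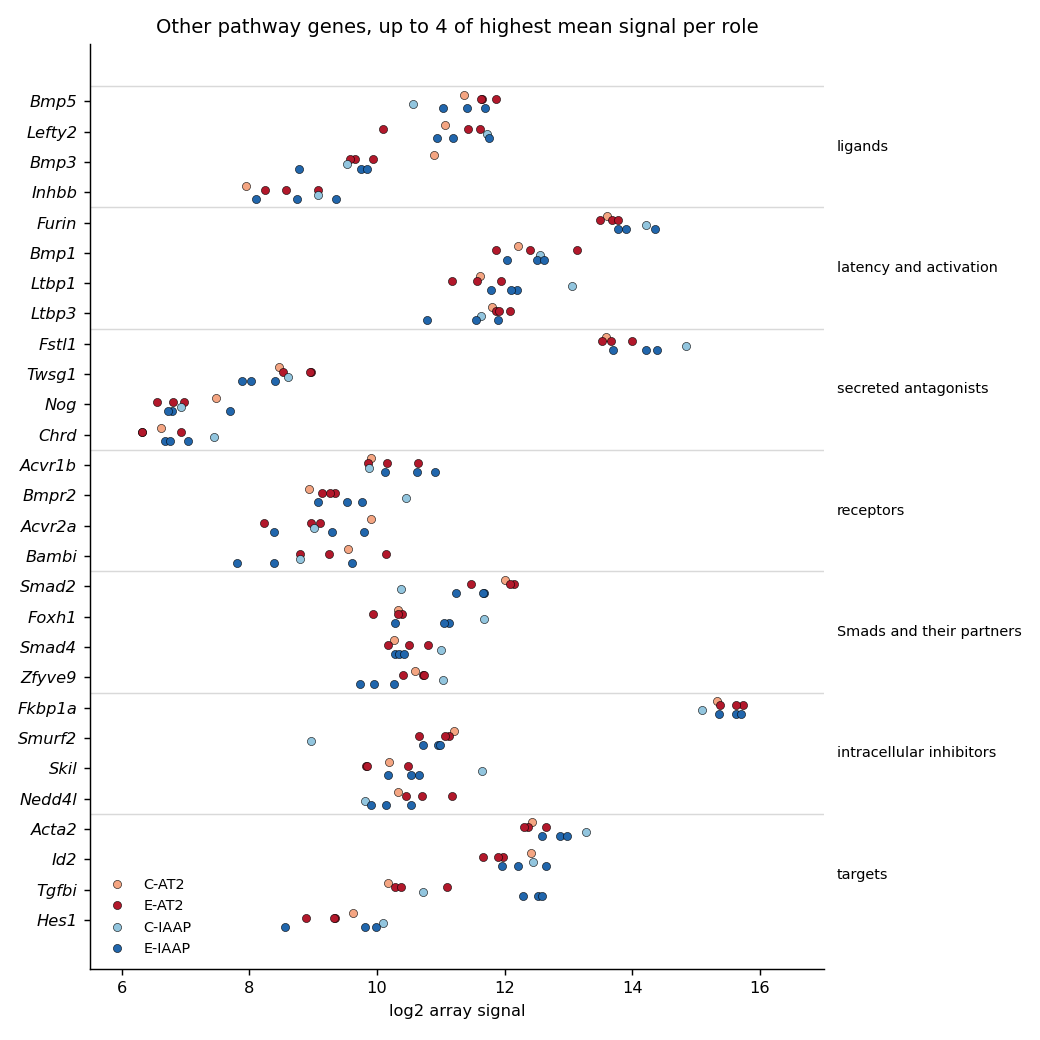
Log2 array signal (horizontal axis) of up to 4 genes of highest mean signal for each role of the pathway (vertical axis), with 1 point an array coloured by group. The E-IAAP points of Tgfbi, at 12.29 to 12.58, stand to the right of those of E-AT2s at 10.28 to 11.10, and the C-IAAP point of Smurf2, at 8.96, stands to the left of the others.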

How the data were processed

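RNA of sorted AT2s and IAAPs was amplified, labeled with Cy5 and hybridized to 1-colour Agilent mouse arrays, 1 for each of 8 samples. The authors deposited log2 spot signals, which their methods describe as NormExp background-corrected and quantile-normalized in limma, and these were used without further scaling. Of 62976 spots, 43941 carried 1 gene symbol and 19035 were left out. The spot with the highest mean over 8 arrays stood for each of 24306 genes. No probe position or sequence was used, and replicate spots could not be recognised.

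E-IAAPs and E-AT2s were compared with limma 3.58.1 (R 4.3.3) with day as a block, and the other comparisons used all 8 arrays in 4 groups. There the spread comes from the days of the experimental groups, and that of the 2 control arrays was taken to be equal to it. P-values were adjusted over all genes (Benjamini-Hochberg), with calls at an adjusted p under 0.05. The background level of an array is the 95 percentile of 1379 sensory receptor genes. A fold written as "at least" sets the brighter group's mean against that level on the dimmer group's arrays. Where the brighter group is C-IAAPs, the higher background of its array is part of the fold. Tables and figures used Python 3.11.15 and pandas 2.3.3.

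The 9 genes, the pathway and marker lists and the tests were chosen with earlier results of these data known. Named are the 9 genes, up to 4 pathway genes of highest mean signal for each role, others that passed where 5 or fewer of a role did, and the 2 genes most like each of the 9. The alternatives were other centring, all probes averaged, brighter genes only, low values raised to background, a mean-variance trend, other designs, each day left out, other background percentiles and, chosen after seeing the data, the second spot. The number of arrays limits the precision.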

Additional observations from a re-analysis of the deposited data

Results flagged for a closer look

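The interaction of population and genotype, which tests whether the gap between IAAPs and AT2s differs between experimental and control mice, passed in limma for 1 of the 9 genes and for 2 of the other 99 pathway genes (2.02%), where 4.37% of all genes passed. For Tgfb2 it was -3.89 (standard error 0.77, adjusted p = 0.0429), for Amhr2, the receptor of anti-Mullerian hormone, 2.82 (standard error 0.54, adjusted p = 0.0407) and for Dlx5, a homeobox target of BMPs, 2.64 (standard error 0.50, adjusted p = 0.0402). All 3 rest on the single C-IAAP or C-AT2 array, and without any 1 of the days 0 genes passed this test. Tgfb2 was above background on the C-IAAP array alone, on a spot chosen by a mean that includes this value. Amhr2 read 3.24 on that array, below background, 7.28 in C-AT2s, 7.31 to 7.54 in E-AT2s and 5.87 to 6.54 in E-IAAPs. Dlx5 was below background on all 8 arrays, at 6.41 in C-AT2s and 3.01 to 3.61 on the other 7. The fitted values of Amhr2 and Dlx5 are given as the fit returned them and are not read as a size or direction.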

How the results depend on the processing

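By replicate number, no paired analysis was possible because all 8 sample titles carry the same one. Arrays of the same day were paired in the comparison of E-IAAPs and E-AT2s, through the day block. Each tested difference of the 9 genes was counted once per alternative setting, 502 in all, and 429 of these kept their direction and side of the threshold. Another 46 changed sign, of which 5 had a size over 1 and 0 were called as first fitted, and 15 of 108 untested day 7 differences moved by more than the spread across days.

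Between E-IAAPs and E-AT2s, where 318 genes and 0 of the 9 passed, 550 and 2 passed with low values raised to background, 547 and 1 with a mean-variance trend, and 483 and 1 without the day block. With each day left out, 0 to 0 genes passed in limma. Between E-IAAPs and C-IAAPs (4157 and 1 of 9), the counts were 17846 and 3 with raised low values, 1407 with day as a term, 2613 and 2 from the 2 groups alone, and 1402 to 2442 and 1 to 2 with each day left out. Of the 9, 2 passed with all probes averaged or with brighter genes only, and 3 with the trend. Between C-IAAPs and C-AT2s (3374 and 1 of 9), they were 17471 and 3 with raised low values, 1640 with day as a term, and 1270 to 1873 with each day left out. Raised low values take the higher C-IAAP background into the difference. Among brighter genes 0 of the 9 passed, since Tgfb2 is not one of them. Within AT2s (0 genes), 1 passed with averaged probes and 10 with raised low values. The interaction (1062 and 1 of 9) gave 547 with averaged probes, 1648 and 0 with brighter genes, 15798 and 2 with raised low values, 1806 with the trend, 0 and 0 with day as a term, and 0 to 0 and 0 to 0 with each day left out. With the 99 percentile as background, 1 of the 9 genes in place of 4 lay above it on all arrays. Where no reason is given, the cause was not tested.

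With low values raised, the E-IAAP to E-AT2 difference of Tgfb2 became -0.01, the E-IAAP to C-IAAP difference of Tgfb3 became -0.03, the C-IAAP to C-AT2 differences of Tgfb1 and Smad7 became 1.61 and 1.52, the E-AT2 to C-AT2 difference of Tgfb2 became 0.03, and the interactions of Tgfb1, Tgfb3 and Id1 became -0.29, -0.71 and -0.66. Centring on genes used by every cell shifts the median gene by -0.21 for E-IAAPs against C-IAAPs, 0.27 for C-IAAPs against C-AT2s and 0.13 within AT2s. It turned Tgfbr2 to -0.01 and 0.20 in the first 2 of these, Tgfbr1, Tgfbr2 and Bmpr1a to 0.12, 0.07 and 0.01 within AT2s, and the interactions of Bmp4, Tgfbr2 and Id1 to -0.02, -0.07 and -0.23. Centring on the median shifts C-IAAPs against C-AT2s by -0.18 and turned Bmpr1a to -0.03. Averaged probes turned Bmpr1a to 0.93 for E-IAAPs against C-IAAPs, -1.67 for C-IAAPs against C-AT2s and 0.97 in the interaction, and Tgfb1 and Tgfbr1 to -0.17 and 0.26 within AT2s. The second spot turned Bmpr1a, in the same order, to 2.63, -3.48 and 2.58 and, within AT2s, to 0.05, Smad7 to 0.03 for E-IAAPs against C-IAAPs and 0.14 in the interaction, and Tgfb1, Tgfb2 and Tgfbr1 to -0.67, 0.13 and 0.00 within AT2s. Day as a term turned Id1 to 0.42 against C-IAAPs, and Tgfbr2, Smad7 and Id1 to 0.17, 0.10 and 0.31 within AT2s. With each day left out, values that changed sign ran, against C-IAAPs, from -0.29 to 0.06 for Id1, within AT2s from -0.23 to 0.76 for Tgfb1, -0.00 to 0.18 for Bmp4, -0.10 to 0.06 for Tgfbr1, -0.25 to 0.10 for Tgfbr2, -0.27 to 0.09 for Bmpr1a and -0.71 to 0.12 for Id1, and in the interaction from -0.42 to 0.27 for Smad7 and -0.06 to 0.42 for Id1.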
